A study of Mus musculus with 2 samples.

Results

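The genes described here are 10 inhibitors of MAP kinase signalling, the dual-specificity phosphatase genes Dusp1, Dusp2, Dusp4, Dusp5, Dusp6, Dusp10, Dusp14 and Dusp16 and the Sprouty genes Spry1 and Spry2. They were taken by name from the noncontrol probes of mouse expression arrays, which gave 11 probes of 55681 and 10 genes of 27665 named ones. Dusp16 had 2 probes and each other gene had 1. Of the 10 genes, 9 were well above background on both arrays, and Spry2 was so on neither.

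Each array held RNA of CD4 T cells sorted from spleen cell cultures of female mice with a transgenic T cell receptor for ovalbumin (OVA-TCR-Tg), 24 h after OVA was added at 0.1 mg/mL. The co-culture held spleen cells stimulated beforehand with 0.1 μg/mL TSST-1, a bacterial superantigen, together with an equal number of OVA-TCR-Tg spleen cells (1250000 per mL). The labels call the pre-stimulated cells anergic, a state in which T cells respond poorly to antigen. The naive-only culture held OVA-TCR-Tg spleen cells alone, at 2500000 cells per mL. The cultures therefore differed in composition and in the number of cells not exposed before, and the labels give neither the number of mice nor a marker by which the sort could have parted naive from pre-stimulated CD4 cells. Each group had 1 array and no replicate, so no difference below has a test. The error given beside a difference is technical and rests almost wholly on the scanner software's preset 10% error per spot.

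The antigen receptor and CD28 start the kinase chains that end in ERK, JNK and p38, the MAP kinases. Most of the Dusp genes encode phosphatases that remove phosphate from both the threonine and the tyrosine of an active MAP kinase, and several are transcribed in response to the very kinase that they shut off. Sprouty proteins act further upstream, where they limit signalling from receptors through Ras to ERK. In T cells such inhibitors set how strong and how long a MAP kinase signal is after antigen. The question here is whether their transcripts differ between CD4 cells sorted from the co-culture and from the naive-only culture. The CD4 cells of the co-culture may include the pre-stimulated ones.

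Dusp16, Dusp14 and Dusp4 were higher in the co-culture by 2-fold or more, and Dusp6 was 1.63-fold higher. Dusp2, Dusp5 and Spry1 were lower, by 1.86-fold, 1.67-fold and 1.495-fold. Dusp1 was at the same level on both arrays, with a ratio of 1.01, and Dusp10 was 1.22-fold lower, within 2 technical errors. None of the 9 measured members was 2-fold lower. The 3 members past 2-fold higher were 33.3% of those measured, beside 7.72% of the 14378 named genes measured on both arrays, and the background for 2-fold lower was 5.54%. Dusp4 lay at the threshold itself (log2 difference 1.0006), so this count is 2 or 3 depending on small changes of the scale.

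The probe sequences that measured the largest difference and a lower member are shown to place them in their transcripts. Both are known to lie in coding sequence near its end, and they are written 5′ to 3′ on the strand of the transcript. The Dusp16 probe at chr6:134668003-134668062 (mm9, minus strand) starts at base 2535 of the reference transcript, and the Dusp5 probe at chr19:53615682-53615741 (mm9, plus strand) at base 1024.
Dusp16: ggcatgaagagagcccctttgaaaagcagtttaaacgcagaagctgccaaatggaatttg
Dusp5: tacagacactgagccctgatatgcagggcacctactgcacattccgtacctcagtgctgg

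The brighter Dusp16 probe, at chr6:134665783-134665842, starts at base 4755 of the same transcript. No probe of the 10 genes shared a run of 16 bases with a probe of any other gene, so the members were told apart by their probes as far as the array's own sequences show. The GC content of the 11 probes ranged from 35% to 55%, and the median over all probes was 43.3%.

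Dusp16 encodes a phosphatase, also called MKP-7, that acts on JNK and p38. Its brighter probe gave a processed signal of 1904 on the co-culture array and 671 on the naive-only array. On the scale used here, log2 relative to each array's 75th percentile, these are levels of 2.66 in the co-culture and 1.16 in the naive-only culture. The log2 difference was 1.495 ± 0.20 (technical error), or 2.82-fold, larger than that of 96.1% of all measured genes. The dimmer probe gave a signal of 98.3 in the co-culture and 23.0 in the naive-only culture, a log2 difference of 2.09 ± 0.36. Both probes of Dusp16 were thus past 2-fold higher. Of the members' 10 measured probes 4 were, beside 6.56% of all 23501 measured probes, and none was 2-fold lower, beside 5.12%. The Dusp16 probes differed from each other by 0.59 ± 0.41 on the log2 scale. The dimmer spot was 2.51 times its local background in the co-culture and 1.44 times in the naive-only culture, so its fold of 4.25 rests on a signal close to background. The SD between the log2 differences of the 2 Dusp16 probes was 0.42, larger than in 86.3% of the 3580 genes with at least 2 measured probes, where the median SD was 0.13.

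Dusp10, also called MKP-5, shares the preference of Dusp16 for JNK and p38. Its signal was 281 in the co-culture and 339 in the naive-only culture, a log2 difference of -0.28 ± 0.21. Dusp16 was thus higher in the co-culture, and Dusp10 was not. The Dusp10 probe lies at chr1:185898608-185898667.

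Of the inducible nuclear phosphatases, Dusp4 was higher, Dusp1 level and Dusp2 and Dusp5 lower. Dusp4 (MKP-2), which acts on ERK and JNK, had a signal of 5731 in the co-culture and 2847 in the naive-only culture. Its log2 difference of 1.0006 ± 0.20 stood above 92.3% of all measured genes. Its probe lies at chr8:35882045-35882104. Dusp1 (MKP-1), an immediate-early gene whose product acts on p38, JNK and ERK, had a signal of 459.6 in the co-culture and 452 in the naive-only culture. This is a log2 difference of 0.01 ± 0.21, and 55.5% of measured genes lay below it. The position of its probe on chromosome 17 spans only 11 bases (26642526 to 26642536), fewer than the 60 bases of the probe, and is given as in the files.

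Dusp2 encodes PAC-1, a phosphatase known from activated lymphocytes. It had a signal of 30438 in the co-culture and 56395 in the naive-only culture, and no spot was saturated. Its log2 difference was -0.90 ± 0.20, or 1.86-fold lower, and 6.80% of measured genes were lower still. Dusp5, which acts on ERK, had a signal of 393 in the co-culture and 651 in the naive-only culture, a log2 difference of -0.74 ± 0.21. Both were lower in the co-culture by over 3 technical errors and neither reached 2-fold. The Dusp2 probe lies at chr2:127163930-127163989.

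Dusp6 (MKP-3), the cytoplasmic phosphatase of ERK, was higher in the co-culture, in contrast to Dusp5, the nuclear one. Its signal was 1132 in the co-culture and 690.5 in the naive-only culture. The log2 difference was 0.70 ± 0.20, or 1.63-fold, above 87.6% of measured genes. Dusp14 (MKP-6) is a small atypical phosphatase without the MAP kinase binding domain of the others, and in T cells it is known to act against antigen receptor signalling. It had a signal of 753 in the co-culture and 324 in the naive-only culture, a log2 difference of 1.21 ± 0.21 or 2.31-fold, above 94.2% of measured genes. The Dusp6 probe lies at chr10:98729985-98730044 and the Dusp14 probe at chr11:83861916-83861975 (minus strand).

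Spry1 was lower and Spry2 was not measured. Spry1 had a signal of 990.0 in the co-culture and 1471 in the naive-only culture, a log2 difference of -0.58 ± 0.20 or 1.495-fold lower, with 14.6% of measured genes below it. The Spry1 probe lies at chr3:37543403-37543462. Spry2 had a signal of 5.35 in the co-culture and 6.96 in the naive-only culture, and its spot was 1.16 times its local background in the co-culture and 1.23 times in the naive-only culture. Neither array read it well above background, and no fold is given for it. Its probe lies at chr14:106291845-106291904.

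**Figure D1:**
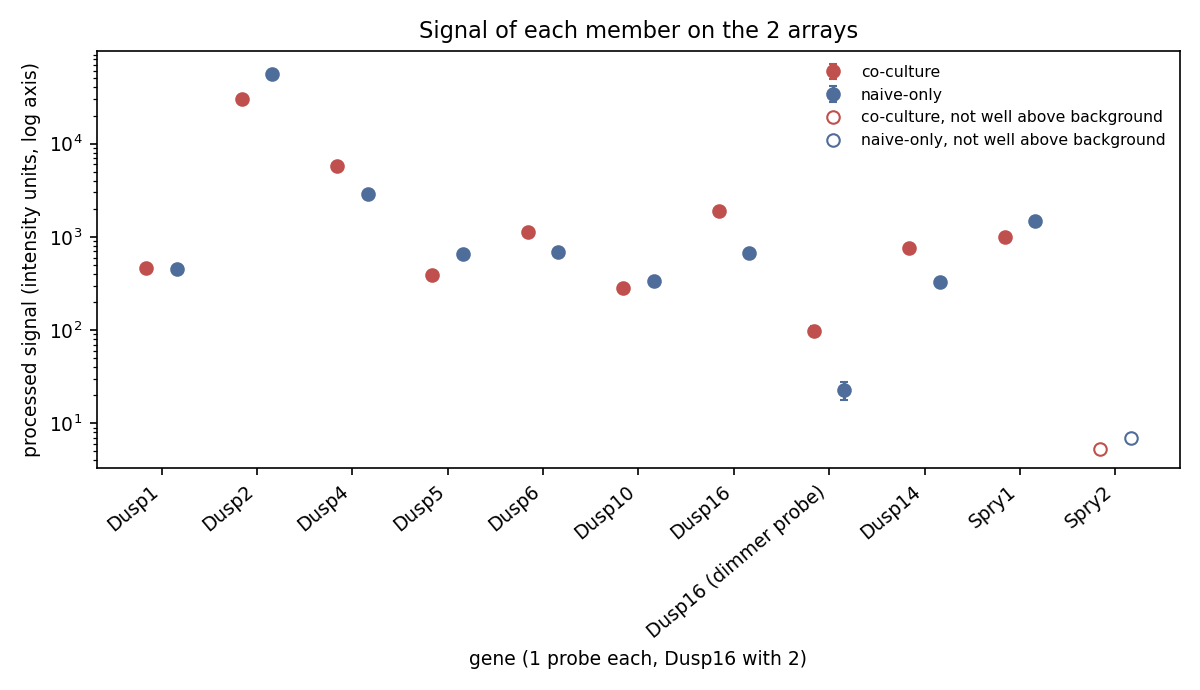
Processed signal (intensity units, log axis) of each member's probe on the co-culture array (red) and the naive-only array (blue), with the software's error as bars that are mostly smaller than the points. Open points are not well above background; signals may be compared within a gene, not between genes. Dusp16, Dusp14, Dusp4 and Dusp6 are higher in the co-culture, Dusp2, Dusp5, Dusp10 and Spry1 lower, and Dusp1 nearly level.

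Read together, the 9 measured members spread to both sides of 0. The log2 differences ranged from -0.90 for Dusp2 to 1.495 for Dusp16, 5 positive and 4 negative, with a median of 0.01. Over all 14378 measured genes the median was -0.05, percentiles 25 and 75 were -0.37 and 0.33, and percentiles 5 and 95 were -1.06 and 1.32. Of the members, 2 lay between percentiles 25 and 75, Dusp1 and Dusp10, and only Dusp16 of the 9 lay outside percentiles 5 and 95. Of the 9, 7 differed by more than 2 technical errors, as did 41.5% of all measured genes. These were 4 higher members, beside a background of 20%, and 3 lower ones, beside 21.5%. The count past 2 technical errors was chosen after the values were seen.

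**Figure D2:**
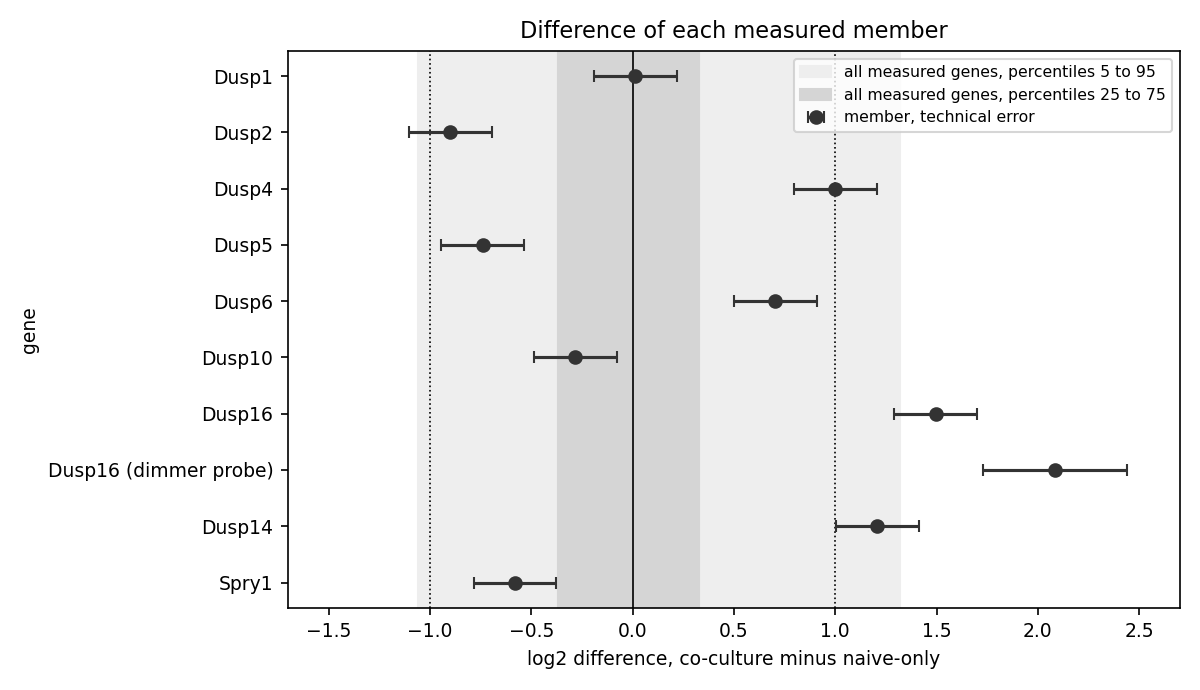
Log2 difference (co-culture minus naive-only) of each measured member, with technical error bars, over grey bands for percentiles 25 to 75 and 5 to 95 of all 14378 measured genes; dotted lines mark 2-fold. Dusp16, Dusp14 and Dusp4 lie at or past the upper 2-fold line, and no member reaches the lower one.

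The sort was checked by marker genes. All 9 T cell markers were above background on both arrays, and 6 were higher and 3 lower in the co-culture. Cd4, the coreceptor, had a log2 difference of 0.35 ± 0.20 and Cd3e, a chain of the receptor complex, one of 0.37 ± 0.20. The lower ones were Cd5, a surface inhibitor of receptor signalling (-0.92 ± 0.20), Cd28, the costimulatory receptor (-0.71 ± 0.20), and Cd247, the zeta chain of the receptor complex (-0.22 ± 0.20). Markers of B cells, which spleen cultures also hold, were lower in the co-culture. Of 13 B cell markers 11 were measured on both arrays, each at least 2-fold lower in the co-culture, and their summed scaled signal was 12.3 in the co-culture and 55.4 in the naive-only culture. The other 2 could be read in the naive-only culture only. The summed level of the T cell markers was 1073 in the co-culture and 962 in the naive-only culture, and none of the 9 passed 2-fold. Of 4 CD8 T cell markers 1 was higher and 1 lower by 2-fold, of 5 plasma cell markers 2 were higher and 2 lower, and of 11 myeloid and dendritic cell markers 4 were lower. Of 3 measured natural killer cell markers 2 were lower, and the 1 measured red cell marker was lower. Some signal of non-T cell markers was strong. The summed level was 289.5 in the co-culture and 288.8 in the naive-only culture for myeloid and dendritic cell markers. It was 174.7 and 94.3 for plasma cells, 2.84 and 6.93 for natural killer cells, and 1.65 and 3.60 for CD8 T cells. The plasma cell sum rested largely on Xbp1 (signal 49574 in the co-culture and 22245 in the naive-only culture). Jchain (-3.20), Mzb1 (-1.46) and Sdc1 (-0.83) of that list were lower, and Prdm1 (1.84) was higher. The CD8 sum of the naive-only culture rested largely on Eomes (signal 828 there and 58.3 in the co-culture). Klrc1 was at 3.65, Cd8a at 0.52 and Cd8b1 at -0.56. The myeloid and dendritic cell sum rested largely on Siglech (signal 45263 in the co-culture and 48922 in the naive-only culture) and Csf3r (36918 and 31141). Others of that list were far dimmer, such as Adgre1 (25.1 and 26.6) and Itgax (38.5 and 52.7). The 4 lower by 2-fold were Fscn1 (-4.56), Flt3 (-2.87), Cd14 (-1.71) and Lyz2 (-1.12), and 0 were 2-fold higher. The part of B cells and the other non-T cells in the lower signals of Dusp2, Dusp5 and Spry1 was not tested. Nor was the part of pre-stimulated CD4 cells in the differences of any member, higher or lower. In such samples fewer cells of a type and less RNA per cell cannot be told apart.

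Other inhibitors of the same families were mostly within 2-fold. Of the MAP kinase phosphatases of the DUSP family outside the 10 members, Dusp7, which acts on ERK, was at 0.22 ± 0.20 and Dusp9, of the same ERK-directed subgroup, at 0.20 ± 0.22. Dusp8, which acts on JNK and p38, had a signal of 9.94 in the co-culture and 81.1 in the naive-only culture. Only the naive-only array read it well above background, and it was at least 4.04-fold lower in the co-culture. This rests on 1 probe, because its other probe was above background on neither array. None of the 8 measured atypical DUSP and STYX genes passed 2-fold. Their range was -0.93 for Dusp11 to 0.62 for Dusp3, with a median of -0.15, and another 6 were not above background on either array.

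Of 5 other Sprouty and Spred genes, 2 were measured on both arrays. Spred2, a Sprouty-related inhibitor of Ras signalling, had a signal of 409.9 in the co-culture and 177 in the naive-only culture, 2.30-fold higher at 1.20 ± 0.21. With normexp background correction it was at 0.90, under 2-fold. Spred1, its close relative, was at -0.62 ± 0.21. Spry4 was not above background on either array, as was Spry2. Of 3 tyrosine phosphatase genes whose products act on MAP kinases, Ptpn7 was at 0.68 ± 0.20, with 0.75 ± 0.22 from its other probe, and Ptprr was not above background. The probes of Ptpn5 disagreed: the one that stands for the gene was at 0.06 ± 0.20, and another, also well above background on both arrays, at 4.81 ± 0.34.

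Most genes of the kinase cascades that these inhibitors oppose were within 2-fold. None of 11 genes of the ERK cascade passed 2-fold. Mapk3, which encodes ERK1, was at 0.89 ± 0.20. In the JNK and p38 cascades 2 of 12 measured genes passed 2-fold, both higher. These were Map2k6, the kinase that activates p38 (1.96 ± 0.21, 3.88-fold, with its other probe not above background), and Mapk12, which encodes p38 gamma (1.49 ± 0.21, 2.81-fold). Mapk13, which encodes p38 delta, could be read above background in the co-culture alone. Its signal was 26.0 there and 17.5 in the naive-only culture, both close to background. The bound of 1.41-fold higher in the co-culture takes no account of technical error. Other genes of these cascades were lower by under 2-fold, among them Mapk8, a JNK gene (-0.86 ± 0.27), and Map2k4 (-0.75 ± 0.20). The other probes of Mapk8 were well above background in the naive-only culture alone. The probe that stands for Map3k5 was at 0.59 ± 0.20, and its other probe was just past 2-fold at 1.03 ± 0.21. The median of the 12 was 0.26. None of 9 measured kinases downstream of the MAP kinases passed 2-fold. Rps6ka2 was read above background in the naive-only culture alone, with a signal of 33.3 there and 19.9 in the co-culture. Both are close to background, and the bound of 1.66-fold lower in the co-culture takes no account of technical error. Its other probe was above background on neither array.

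Among the genes that lead into Ras, 1 of 11 measured ones passed 2-fold, upward. This was Rasgrp4 (1.63 ± 0.24), a Ras activator. It was under 2-fold with normexp background correction (0.88), and it was not kept when genes under percentile 25 of mean level were left out, so the count was 0 in both settings. Rasgrp1, the main Ras activator of T cells, was at 0.83 ± 0.20. The probes of Gab3 disagreed in sign. The one that stands for the gene was at -0.76 ± 0.20, and a dimmer one, also well above background on both arrays, at 1.07 ± 0.26. Rasgrp3, best known in B cells, had a signal of 8.52 in the co-culture and 198.6 in the naive-only culture. It was at least 9.89-fold lower in the co-culture. The B cell markers were lower there too, and the part of B cells in the Rasgrp3 difference was not tested. None of 8 measured Ras GTPase-activating genes passed 2-fold.

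Genes known to be induced by ERK fell on both sides. Of 17 measured, 4 passed 2-fold upward and 2 downward, and the median was -0.29. The ETS factor gene Etv5 was 9.79-fold higher (3.29 ± 0.21), with a signal of 2438 in the co-culture and 247 in the naive-only culture. Etv4, also an ETS factor gene, was 6.41-fold higher (2.68 ± 0.21), and its other probe gave 3.04. Phlda1 was 5.39-fold higher (2.43 ± 0.20) and Ier3 2.75-fold higher (1.46 ± 0.20). The AP-1 subunit gene Jun (-1.57 ± 0.20) and the orphan nuclear receptor gene Nr4a1 (-1.15 ± 0.20) were the 2 lower. The immediate-early genes Fos (-0.81 ± 0.21) and Egr1 (-0.71 ± 0.20) were lower by under 2-fold. In other cells Etv4, Etv5, Phlda1, Spred2, Dusp4 and Dusp6 are known as transcripts that follow ERK output, and here all of these were higher in the co-culture, whereas Dusp5 and Spry1, known to follow ERK as well, were lower. The genes in that sentence were put together with their values known, so their shared direction is a description only. Other genes did not go with them. Myc (-0.71 ± 0.20) and Ier2 (-0.29 ± 0.20) of the same list were lower, Fosl1 (-0.11 ± 0.22) was nearly level, and Spred1, the relative of Spred2, was lower (-0.62 ± 0.21).

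Over all 10 lists of pathway genes, 8 of 82 measured genes (9.76%) passed 2-fold upward and 2 (2.44%) downward, beside the background of 7.72% and 5.54%. The median of the 82 was 0.04.

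**Figure D3:**
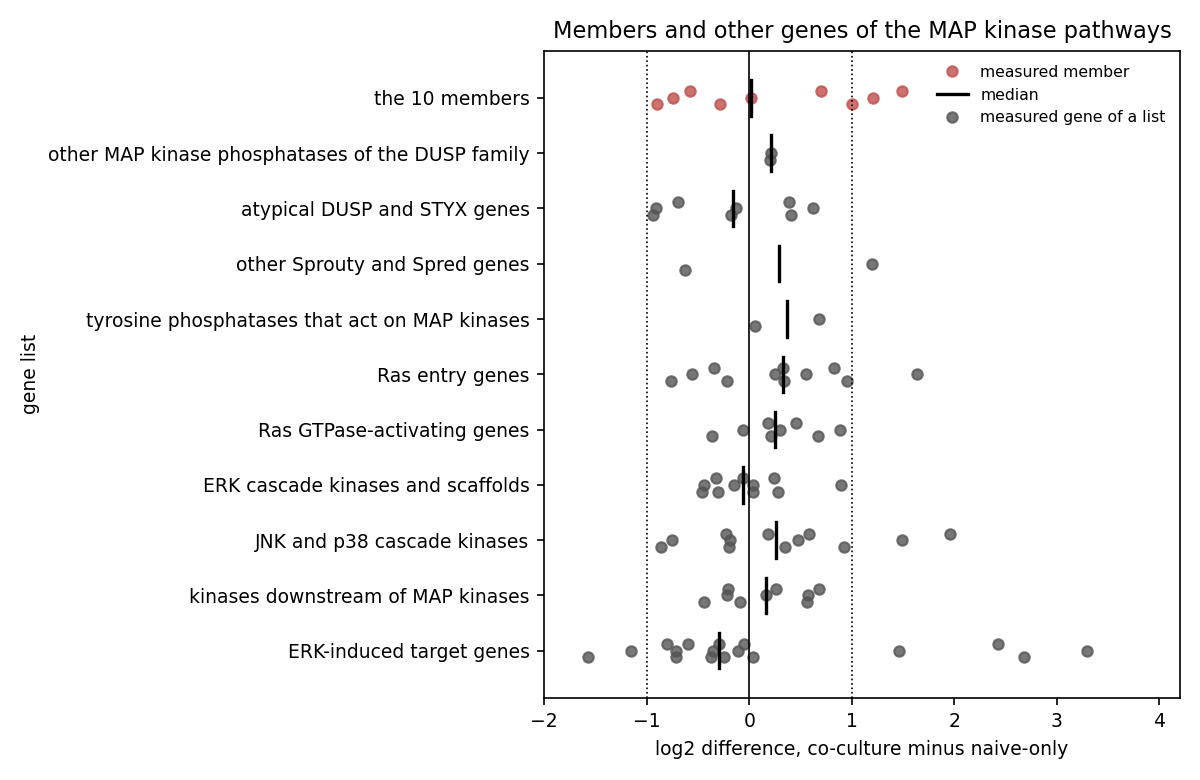
Log2 difference (co-culture minus naive-only) of each gene measured on both arrays, for the members (red) and for 10 lists of pathway genes (grey), with a black bar at each median; dotted lines mark 2-fold. Most genes lie within 2-fold, and Etv5, Etv4 and Phlda1 in the bottom row lie farthest to the right.

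Promoter sequence was available for 9 of the 10 members, all but Dusp4 (RefSeq, GRCm38.p6), as the 250 bases before the annotated start. It is shown for Dusp16 and Dusp14, which were past 2-fold higher, for Dusp1, which was level, and for Dusp5, which was lower, because these 4 hold the response motifs searched for. Each is written 5′ to 3′ on the strand of the gene. Capitals mark matches, on either strand, to the cyclic AMP response element TGACGTCA or its core TGACG, to the AP-1 site TGAGTCA, to the ETS core CCGGAA, and to the CArG box bound by serum response factor. The full element contains its core, so the 2 overlap.
Dusp16 (chr6:134792629-134792878, minus strand): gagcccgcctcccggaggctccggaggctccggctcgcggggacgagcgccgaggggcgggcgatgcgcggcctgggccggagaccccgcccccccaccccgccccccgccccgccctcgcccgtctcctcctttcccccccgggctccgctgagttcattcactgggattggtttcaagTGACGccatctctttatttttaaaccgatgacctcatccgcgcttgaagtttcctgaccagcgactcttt
Dusp14 (chr11:84068358-84068607, minus strand): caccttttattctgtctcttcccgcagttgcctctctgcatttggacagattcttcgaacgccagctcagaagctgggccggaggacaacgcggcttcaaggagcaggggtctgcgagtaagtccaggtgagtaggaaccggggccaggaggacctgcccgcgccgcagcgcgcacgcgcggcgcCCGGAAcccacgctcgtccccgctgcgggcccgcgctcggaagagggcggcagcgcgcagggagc
Dusp1 (chr17:26508473-26508722, minus strand): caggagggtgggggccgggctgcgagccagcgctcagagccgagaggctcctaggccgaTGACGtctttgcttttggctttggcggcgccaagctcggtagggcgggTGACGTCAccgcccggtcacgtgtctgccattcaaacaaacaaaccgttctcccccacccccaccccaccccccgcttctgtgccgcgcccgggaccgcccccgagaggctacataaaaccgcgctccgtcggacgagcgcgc
Dusp5 (chr19:53528895-53529144, plus strand): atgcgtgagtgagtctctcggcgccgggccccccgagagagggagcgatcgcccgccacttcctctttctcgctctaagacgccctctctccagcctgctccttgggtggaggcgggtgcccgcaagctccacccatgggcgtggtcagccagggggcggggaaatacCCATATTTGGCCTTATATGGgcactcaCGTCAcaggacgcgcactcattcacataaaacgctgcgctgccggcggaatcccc

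The Dusp1 promoter held the full cyclic AMP response element at -143 from the start, as did 1.55% of 32851 promoters, and another core at -191. Dusp5 held 2 CArG boxes, at -82 and -72, and 1.47% of promoters held at least 1. Dusp5 also had the core at -55 and Dusp16 had it at -70, as did 17.8% of promoters. Dusp14 held the ETS core at -65, beside 12.03% of promoters. The AP-1 site was in none of the 9 member promoters and in 4.46% of all. Promoters of members that were higher and of members that were lower thus shared, of these motifs, only the core TGACG, in Dusp16 and Dusp5. The promoters of Dusp2, Dusp6, Dusp10, Spry1 and Spry2 held none of these motifs in the 250 bases. Of general promoter motifs, the GC box GGGCGG was in 7 of the 9 (32.7% of all promoters), CCAAT in 4 (33.8%), the E-box CACGTG in Dusp1 and Dusp2 (6.02%) and TATAAA in none (12.4%). Such a match is a run of letters and not a measured binding site. The GC content of the member promoters ran from 56.4% (Dusp6) to 70.4% (Dusp2), beside a median of 52.4% over all promoters.

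The direction of 8 of the 9 measured members was the same under all 9 other settings of background correction, scaling, filter, probe choice and source of the values. Dusp1 was the exception, between -0.02 and 0.06. Some settings could not change a member's value: the 2 filters on dim probes for any of the 9, and the choice of probe for any but Dusp16. The log2 difference of Dusp2 ranged from -0.90 to -0.84, that of Dusp6 from 0.67 to 0.75, that of Dusp14 from 1.01 to 1.26 and that of Dusp16 from 1.37 to 1.79. The lowest values of Dusp14 and Dusp16 came with normexp background correction, and the highest of Dusp16 with the median of its probes.

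**Figure D4:**
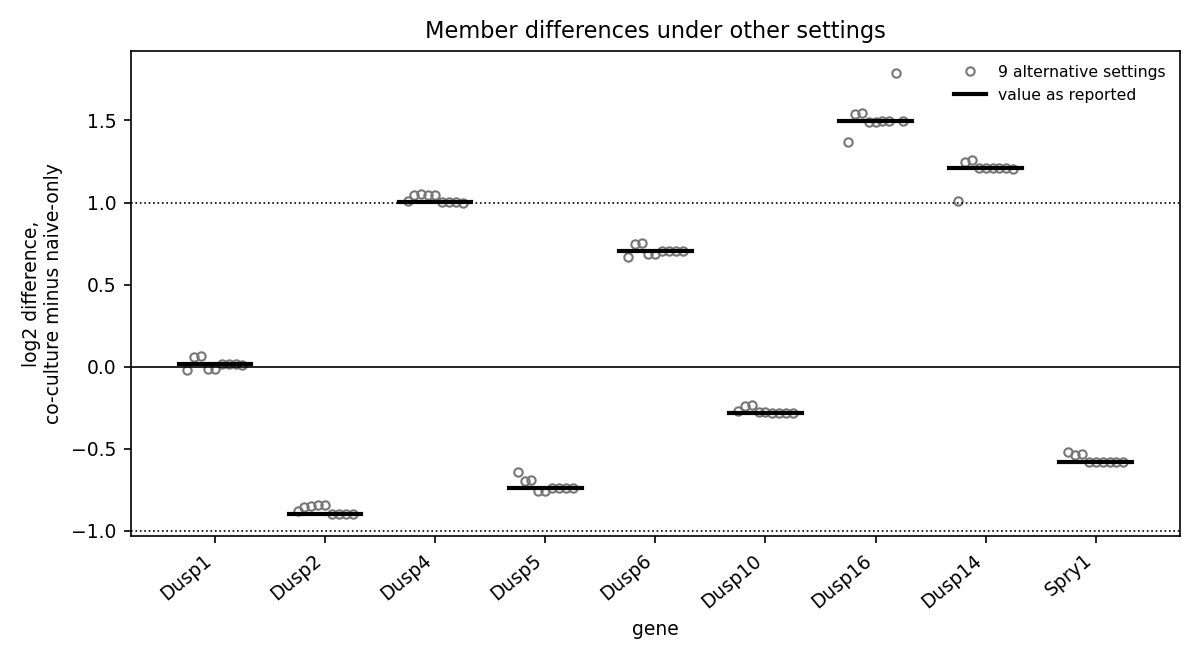
Log2 difference (co-culture minus naive-only) of the 9 measured members as reported (black bars) and under 9 alternative settings (open circles); dotted lines mark 2-fold. The circles stay near the bars for most members, spread most for Dusp16 and Dusp14, and sit on the 2-fold line for Dusp4.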

How the data were processed

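RNA of sorted CD4 T cells was measured on 1-colour (Cy3) Agilent arrays, 1 for the co-culture and 1 for the naive-only culture. Amplification of the RNA before labelling, per the labels' protocols, can alter relative levels. The deposited scanner files hold spot intensity, background-subtracted and detrended with Agilent Feature Extraction 10.7.1.1 per the file headers (version 9.5.1.1 per the submitters' processing notes). A value table, also deposited, gives linear intensity with the same median on both arrays; the authors' normalization of it is not given in sources used here. Its differences correlated at 0.999 with those used here across measured probes (not independent replicates).

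The log2 processed signals of a probe's spots were averaged, and from this the log2 of percentile 75 of all noncontrol probes of that array was subtracted (301.3 intensity units for the co-culture and 299.4 for the naive-only culture). Each difference is the co-culture's value minus the naive-only culture's. For a gene with several probes, the one brightest on average stood for it. A gene was measured if the software called that probe well above background in both cultures. On the co-culture array 45.1% of 55681 probes were well above background, and on the naive-only array 46.2%. A gene above background on 1 array only has a bound, taken from signal levels without their technical error. With 1 array per group no test was possible; precision is limited by the number of arrays. The calculation was tested on simulated data.

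Every member was named. From each pathway list the genes past 2-fold (at most 4 a direction) and those above background on 1 array were named, plus 8 set whatever their value (1 of them is not reported here), and any other gene was named after its values were seen. The members and all lists were chosen with earlier results of these data known. With 2 arrays no likeness of pattern between genes could be measured. Alternatives were normexp background correction (offset 50), 3 other scalings, the deposited table, 2 filters on dim probes, the median over a gene's probes, and leaving out spots marked as outliers. Symbols were updated through RefSeq (GRCm38.p6), where all 10 members kept their names. The files place probes on mm9, whose exon annotation was not used here. Promoters are RefSeq's (GRCm38.p6). Tools were Python 3.11.15, numpy 2.4.6, pandas 2.3.3, matplotlib 3.10.9, R 4.3.3 and limma 3.58.1.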

Additional observations from a re-analysis of the deposited data

How the results depend on the processing

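No paired analysis was possible because each group has 1 array, and no replicate could be left out. Over 9 alternatives, 80 of 81 values of single members moved by less than the technical error. The 1 that moved further was Dusp16, at 1.79 with the median over its probes. Many of the 81 values could not move. The 2 filters on dim probes leave the value of a measured member as it is, and the median over probes can change only Dusp16. No spot of a member was marked as an outlier, so leaving such spots out shifted only the scale. The deposited table gave nearly the values of 1 of the other scalings, so the 9 are not separate checks. The count of members at least 2-fold higher was 3, and 2 when spots marked as outliers were left out, where Dusp4 fell just under 2-fold. No member was 2-fold lower under any of the 9. The members' median ranged from -0.13 to 0.06. Among the other pathway genes, Rasgrp4 (0.88) and Spred2 (0.90) were under 2-fold with normexp. The median of the 2 measured tyrosine phosphatase genes, 0.37 as reported, was 1.57 with the median over each gene's probes, where Ptpn5 passed 2-fold. Of 359 values of the lists and their genes 17 moved. A reversal of sign was counted only for single genes past 2-fold, not for medians or counts of lists, and there were 0. Signal over background limits Spry2 and the dimmer Dusp16 probe.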

Other observations

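Within 60000 bases of the members' probes (mm9) the arrays held 64 probes of other names, of which 26 were well above background on both arrays. Their log2 differences (co-culture minus naive-only) ranged from -1.06 to 0.92, with a median of -0.07, and none was 2-fold higher. The 1 that was 2-fold lower, beside 5.12% of all measured probes, is a probe of an intergenic transcript on the strand of Spry1. It lies at chr3:37546793-37546852, 3390 bases downstream of the Spry1 probe, with a level of -3.16 in the co-culture and -2.09 in the naive-only culture and a difference of -1.06 ± 0.28. The 2 other probes of that transcript were not above background on either array, and this one was itself near the lowest level called above background (-3.90 in the co-culture and -4.03 in the naive-only culture). Spry1 was at -0.58. This probe was named after its values were seen.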
